A study of Mus musculus with 2 samples.

Results

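The genes described here encode the DNA replication machinery, here in mouse EpiSC (epiblast stem cells), a pluripotent cell type related to the epiblast of the implanted embryo. The list holds 41 genes with a known role in replication. Of these, 34 were found by the gene name printed on the array, with 39 probes. The other 7 (Orc1 to Orc6 and Cdc45) stand on the array under older names such as Orc4l and Cdc45l and were matched through RefSeq, which gave 48 probes for all 41 genes, out of 22753 named genes. Clone 1 and clone 2, each a single EpiSC clone, were profiled, both wildtype, female, of C57BL/6 background and at passage 9, with 1 array each. No treatment other than collection with trypsin is given, and the sources used here do not say whether feeder cells were present. The arrays were Agilent 1-colour arrays hybridised with Cy3-labelled cRNA made from 0.2 ug of RNA. With 1 array per clone no test between clones is possible, and every difference below has no replicate check.

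Replication starts at origins that are licensed before S phase, when the origin recognition complex (ORC), Cdc6 and Cdt1 load the MCM ring onto DNA. In S phase Cdc45 and the GINS complex join the ring to form the active helicase, called CMG, and the polymerases, the sliding clamp and the enzymes of the lagging strand follow it. Many of these genes are known targets of E2F transcription factors, and pluripotent stem cells are known for fast cycles with a short G1 phase.

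Levels are log2 processed signals after subtraction of each array's 75th percentile, so 0 is the level that 75% of all probes do not exceed. A probe counts as detected when it is well above background by the scanner software's flag. The level of a gene is that of its brightest probe, and levels of different probes are not compared, since probes differ in how strongly they bind. Differences are clone 2 minus clone 1 on the log2 scale. Error is given by a pair of yardsticks. The scatter of repeated spots of one probe, printed 10 times on each array, had a median SD of 0.07 log2 for clone 1 and 0.08 for clone 2, so that 1.96 times the combined scatter is 0.21 log2 (1.16-fold). For dim probes, below -2, the same limit is 0.33 log2. The software's own error of a difference between single spots lay between 0.20 and 0.23 log2 for the members' brightest probes. This error was not multiplied by 1.96, so it is not on the same footing as the limit of 0.21. Genes are called below by the spot scatter alone, and a difference just past 0.21 is about the size of the software's error. Neither yardstick covers the spread between cultures or labelling reactions, and 45.3% of all genes measured on both arrays lay beyond the limit of 0.21.

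The 75th percentile signal was 830 in clone 1 and 736 in clone 2, 104 and 103 times the median of the negative controls, and no member probe was saturated or marked as an outlier. All 10 EpiSC markers (among them Pou5f1, Nanog and Otx2) were detected in both clones, with summed signals of 163 and 181 times the 75th percentile. So were all 10 fibroblast markers (110 and 123), and 4 of 6 macrophage and blood markers (2.98 and 3.35). The marker Ptprc was detected in clone 1 only (-3.95, and -4.59 in clone 2) and Cd68 in clone 2 only (-4.13, and -4.66 in clone 1), as log2 levels. Both were dim, at least 1.54-fold and 1.36-fold above the lowest detected signal of the other clone. Fibroblasts replicate too, and the part of such cells in the levels below was not tested.

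Promoters were searched for motifs of E2F and of CCAAT-binding factors. In the RefSeq promoter table of GRCm38.p6, which spans 250 bases before to 50 after a gene's start, 33 of the 41 members matched. The E2F consensus, searched as TTTCCCGC, TTTCGCGC, TTTGCCGC and TTTGGCGC on both strands, occurred in 13 of these 33 (39.4%), against 2.6% of all 27025 promoters in the table. The CCAAT box, searched as CCAAT on both strands, occurred in 22 of 33 (66.7%), against 41.1% of all promoters. Both motifs occurred together in 8 members (24.2%, against 1.26%). Members were counted per gene and the background per promoter, so the shares are not in like units. Mcm7, Orc2 and Fen1 have 2 promoters each in the table, and Orc4 and Lig1 have 3, which gives them more room for a match. Neither was found in Orc5, Rfc4, Rfc5, Pola2, Fen1 and Tyms. Matches of the E2F motifs and of CCAAT can overlap at their end letters. Members with the E2F consensus included the MCM subunit genes Mcm3, Mcm5, Mcm6 and Mcm7, the licensing genes Cdc6, Cdt1, Orc1 and Orc3, and Gins3, Rfc3, Pola1, Pold1 and Lig1. A match is a stretch of letters and not a measured binding site. One window is shown for each of 4 roles, 5′ to 3′ on the gene's strand and ending before the start, with the matches in capitals. They lie at chr8:75109326-75109393 (plus strand) for Mcm5, chr11:98907983-98908050 (plus) for Cdc6, chr5:151651209-151651248 (minus) for Rfc3 and chrX:93632256-93632323 (minus) for Pola1, all in GRCm38.p6.
Mcm5: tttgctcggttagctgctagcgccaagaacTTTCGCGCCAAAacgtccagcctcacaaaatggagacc
Cdc6: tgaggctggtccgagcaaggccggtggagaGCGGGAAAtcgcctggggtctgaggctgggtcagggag
Rfc3: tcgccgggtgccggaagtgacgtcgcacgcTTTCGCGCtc
Pola1: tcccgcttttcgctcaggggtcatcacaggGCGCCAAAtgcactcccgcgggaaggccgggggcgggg
In Mcm5 a pair of matches, one on each strand, overlap in a single run of capitals. The match begins 153 bases before the start in Mcm5, 138 in Cdc6 and in Pola1, and 10 in Rfc3.

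RNA of every gene of the replication machinery list was detected in both clones, and the levels mostly differed little between them. All 34 members found by name were detected on both arrays, and all 41 with the older names, against 61.3% of all genes. None of the 34 was 1.5-fold apart, and 1 of 41 was (Orc4), against 9.09% of all measured genes. By direction, 1 of 41 was at least 1.5-fold higher in clone 2 (5.8% of all genes) and 0 in clone 1 (3.29%). At 2-fold the count was again Orc4 alone, against 2.55% of all genes. In this scaling, 37 of the 41 members (90.2%) differed by less than 1.2-fold between clones, against 64.7% of all 13923 genes measured on both arrays. Fewer members did after quantile normalization, when for example Pcna (-0.36), Gins1 (-0.30) and Orc6 (-0.28) passed that size. The share of all genes under that normalization is not given here. The SD of the differences was 0.22 log2 over the members, and 0.15 over the 34, against 0.40 over all genes. These comparisons were not matched for level, and dim probes scatter more. None of the 10 EpiSC and 10 fibroblast markers was 1.5-fold apart either, so the lack of 1.5-fold differences is not particular to the members. Of 4 macrophage and blood markers measured on both arrays, 1 was: Csf1r, 1.78-fold higher in clone 2 by its brightest probe and 1.06-fold by another. Beyond the spot scatter lay 5 of 10 EpiSC and 4 of 10 fibroblast markers, against 6 of 41 members and 45.3% of all genes. In bulk RNA, fewer cells in cycle and less of these RNAs per cell cannot be told apart.

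**Figure D1:**
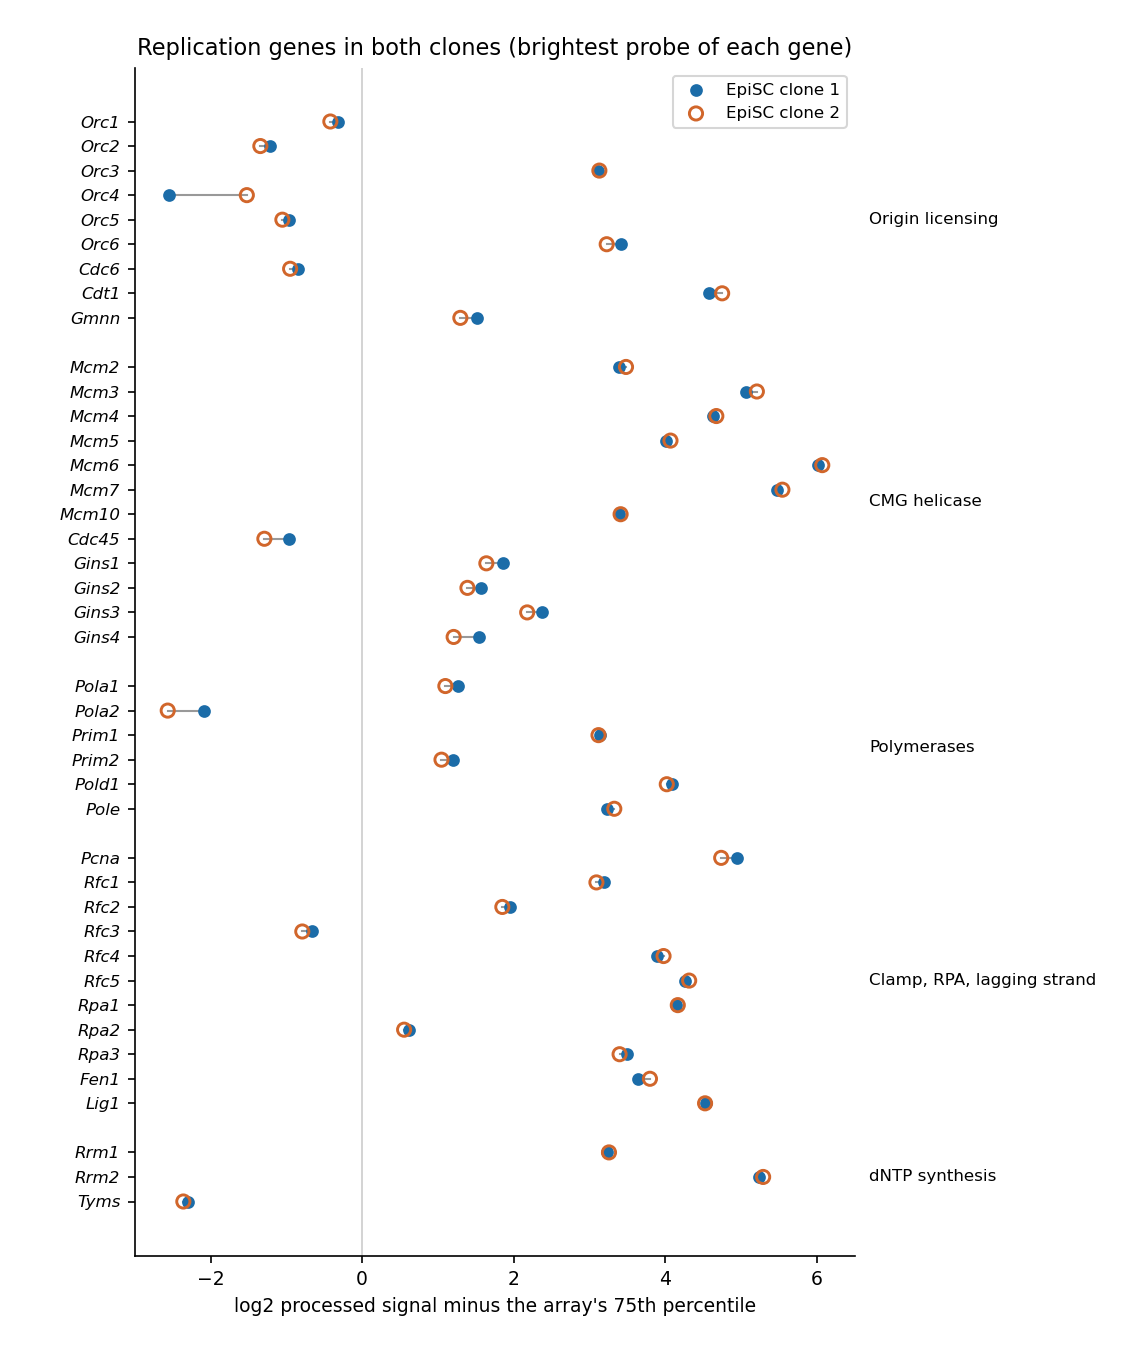
Log2 level of each of the 41 replication genes (x axis, processed signal minus the array's 75th percentile, brightest probe) in EpiSC clone 1 (filled points) and clone 2 (open circles), grouped by role, 1 array per clone. The circles lie close together for all genes except Orc4, whose points are 1.03 log2 apart.

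Small differences leaned towards clone 1. The median difference was -0.04 log2 over the 34 members and -0.07 over the 41, against 0.05 over all genes. Of the 41, 17 were higher in clone 2 and 24 in clone 1, where 57.1% of all genes were higher in clone 2 and 42.9% in clone 1. Between 3 and 17 of the 41 were higher in clone 2 over 9 alternatives, since the choice of scaling moves such small differences across 0. Relative to the median of all genes the members' median was lower in every one of 9 alternatives, by -0.10 to -0.23, which is a description of these arrays only. Some of the 9 could not change this: RefSeq names and the percentile over detected probes gave -0.11, as the main scaling did. Another detection flag and keeping outliers left it nearly the same. Beyond the spot scatter of 0.21 were 6 of 41 (4 of 34), against 45.3% of all genes: Gmnn, Cdc45, Gins1, Gins4 and Pola2 were lower in clone 2 (17.7% of all genes were), and Orc4 was higher by its brightest probe (27.6% of all genes were). Over 9 alternatives 6 to 12 of the 41 lay beyond the same limit, with the most, 12, in the percentile over detected probes and with normexp correction.

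**Figure D2:**
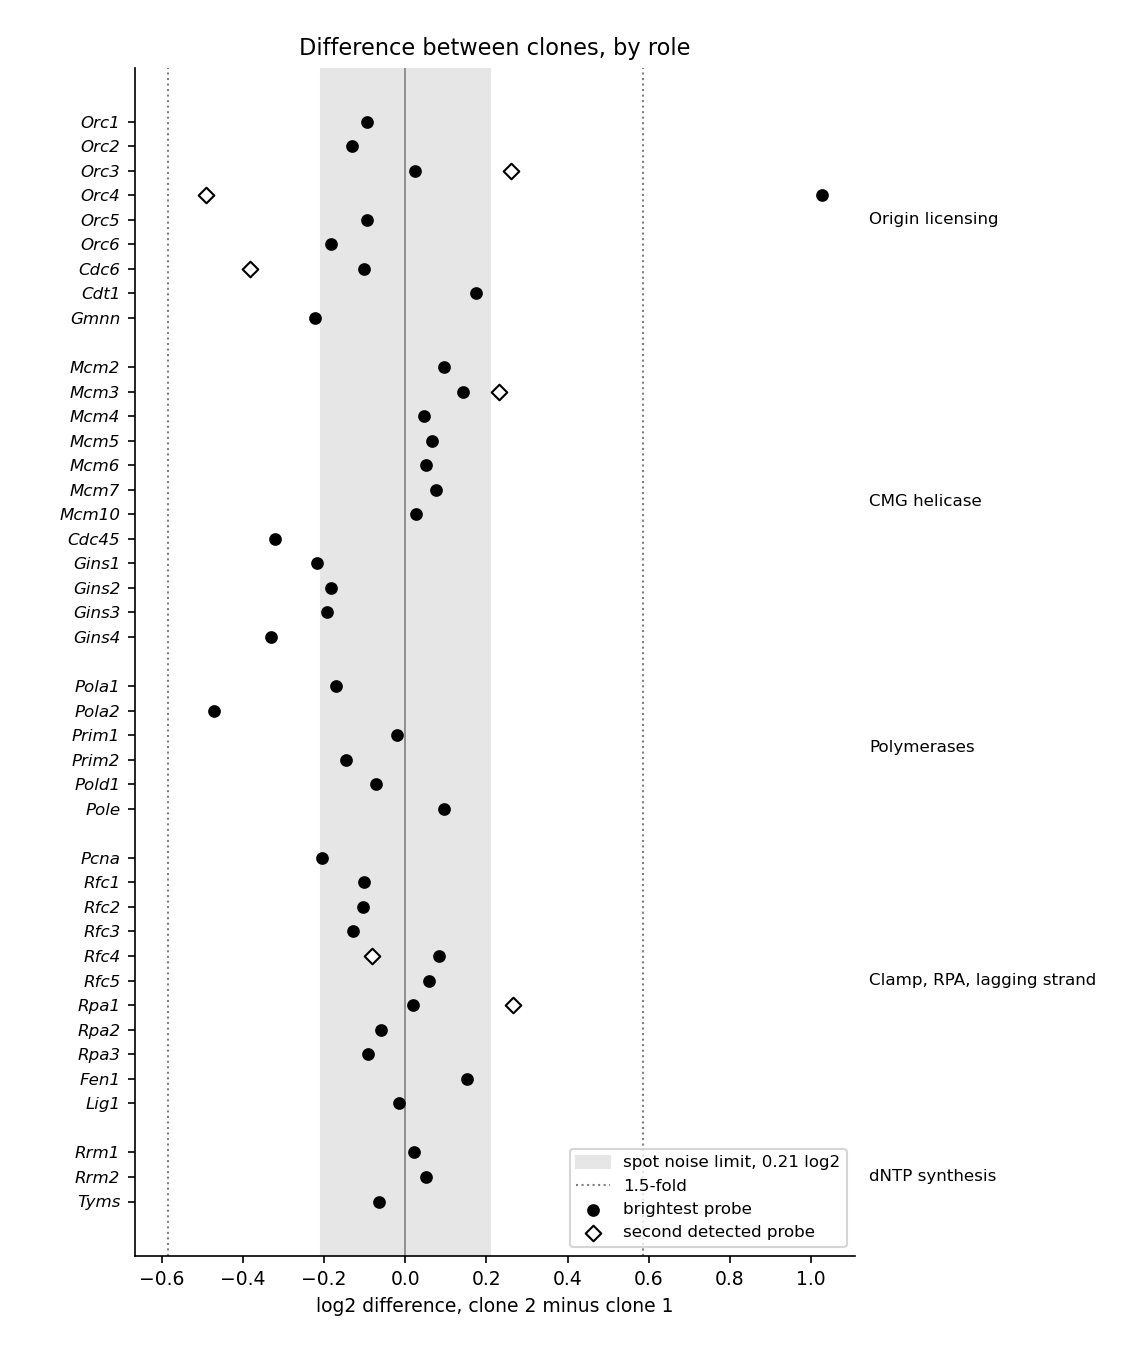
Log2 difference between clones (clone 2 minus clone 1, x axis) of each member by role, with the brightest probe as filled points and a second detected probe as open diamonds. The grey band is the spot noise limit of 0.21 and the dotted lines mark 1.5-fold, and all but 6 of the 41 filled points lie within the band.

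Among the licensing factors, 5 ORC subunits lay inside the spot scatter in this scaling and Orc4 did not. Orc1, the largest ORC subunit and an ATPase, read -0.33 in clone 1 and -0.42 in clone 2. Orc2 read -1.21 and -1.34, and Orc5 read -0.96 and -1.05. Each of these 3 subunits was slightly lower in clone 2, by 0.13 log2 at most, though Orc2 was 0.05 higher with normexp correction. Orc6 read 3.41 and 3.23, a difference of -0.18 that passed the limit in 4 other scalings or sources, at -0.26 with the percentile over detected probes, -0.28 after quantile and after cyclic loess normalization and -0.29 in the authors' deposited table. Orc3 read 3.10 and 3.13 by its brightest probe.

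Orc4 was the one member whose clones stood apart, and its probes opposed each other. The brightest probe, on chromosome 2 from 48792316 to 48792375 in mm9, read -2.55 in clone 1 and -1.52 in clone 2, a difference of 1.03 (2.04-fold). It is the brighter probe by its mean over both arrays, but in clone 1 the other probe has the higher signal, so the 2-fold call rests on that choice. The second probe, 33505 bases downstream on the minus strand at 48758811 to 48758870, read -1.88 and -2.37, a difference of -0.49 (1.41-fold higher in clone 1). Both differences exceed the dim-probe limit of 0.33, in opposite directions, so no direction is given for the gene. The value of the gene was -0.10 with normexp background correction, and the mean of both probes was 0.27. The brightest probe is picked anew from the corrected values, so the -0.10 may belong to the second probe. It is not shown to be a reversal of the first. None of the 4 detected spots around the brightest probe was 2-fold apart, and their median difference was 0.04. Probes opposed each other in 41% of 3501 genes with several measured probes, but only 2.86% of such genes had probes at least 1 log2 apart in their differences, and Orc4, at 1.52, is among these.

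The loading factors differed little. Cdc6, which brings the MCM ring to ORC, read -0.85 in clone 1 and -0.95 in clone 2, and its second probe read -1.55 and -1.93. Cdt1, its partner in loading, read 4.57 and 4.75. Geminin (Gmnn), the protein that holds Cdt1 inactive after S phase begins, read 1.52 and 1.29, a difference of -0.22. RNA of the loading factors and of their inhibitor was thus detected in both clones, with Cdt1 slightly higher and Gmnn slightly lower in clone 2. With normexp correction the difference of Cdt1 was -0.07, while that of Gmnn lay between -0.47 and -0.22 over all 9 alternatives.

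In the helicase, the differences of the ring subunits depended on the scaling and those of GINS and Cdc45 kept their sign. Of the ring subunits, Mcm2 read 3.38 in clone 1 and 3.48 in clone 2, Mcm4 4.63 and 4.67, and Mcm5 4.001 and 4.07. Mcm6 read 6.02 and 6.07, and Mcm7 read 5.47 and 5.54. Mcm3 read 5.06 and 5.21, with 4.31 and 4.54 by a second probe. The 6 differences lay between 0.05 and 0.14, inside the spot scatter, and all were above 0 in this scaling, but 0 of 6 were above 0 after quantile or cyclic loess normalization or in the authors' deposited table, so the ring has no direction. Mcm10, which helps to activate the ring, read 3.38 and 3.41.

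The GINS subunits were lower in clone 2 in all 4 cases and under all 9 alternatives. RefSeq names, the other detection flag and the mean of probes could not change these values. Keeping outliers and the percentile over detected probes only shifted all 4 by the same amount. The sign was thus put to the test only by quantile and cyclic loess normalization, normexp correction and the deposited table. Gins1 read 1.86 in clone 1 and 1.64 in clone 2, and Gins2 read 1.57 and 1.39. Gins3 read 2.37 and 2.18, and Gins4 read 1.54 and 1.21. The differences were -0.22, -0.18, -0.19 and -0.33, with a median of -0.21, and those of Gins1 and Gins4 lay beyond the spot scatter in this scaling. Over the alternatives the median of the GINS genes lay between -0.33 and -0.20. Cdc45, the other activating factor, read -0.97 and -1.29, a difference of -0.32. It lay between -0.40 and -0.20 over the alternatives. Whether these differences of 1.14-fold to 1.26-fold exceed the spread between cultures was not tested, and 17.7% of all genes were lower in clone 2 beyond the spot scatter.

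**Figure D3:**
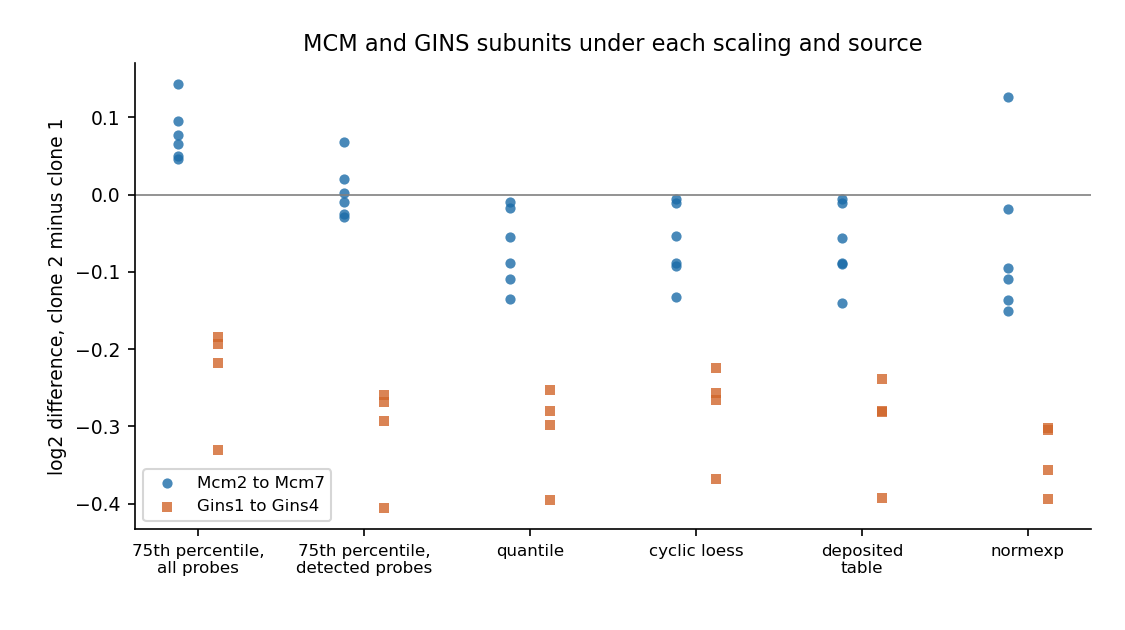
Log2 difference between clones (clone 2 minus clone 1, y axis) of the 6 ring subunits Mcm2 to Mcm7 (circles) and the 4 GINS subunits (squares), under 6 scalings or sources of the values (x axis). The squares stay below 0 in every column, and the circles cross it.

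RNA of the polymerases was detected in both clones as well. Pola1, the catalytic subunit of the polymerase alpha that starts each strand with the primase, read 1.27 in clone 1 and 1.097 in clone 2. Its regulatory partner Pola2 read -2.09 and -2.56, a difference of -0.47 (1.39-fold). That is beyond the dim-probe limit, but with normexp correction it was -0.02. The primase subunits Prim1 and Prim2 read 3.14 and 3.12, and 1.19 and 1.05. Pold1, the catalytic subunit of the lagging-strand polymerase, read 4.09 and 4.02. Pole, that of the leading-strand polymerase, read 3.23 and 3.33 by its brightest probe, and neither array showed its second probe well above background. Of the 6 genes, 5 were lower in clone 2 in this scaling and under all 9 alternatives, by 0.02 to 0.47 log2 in this scaling, while Pole had no stable sign, and Pola2 alone lay beyond the spot scatter in this scaling.

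At the fork, the RNAs of the clamp and its loader were close to equal. Pcna, the sliding clamp, read 4.94 in clone 1 and 4.74 in clone 2, a difference of -0.21, just inside the limit, and -0.36 after quantile normalization. The loader subunits Rfc1, Rfc2 and Rfc3 read 3.19 and 3.09, 1.95 and 1.85, and -0.66 and -0.79. Rfc4 and Rfc5 read 3.89 and 3.97, and 4.25 and 4.31. The loader genes thus had 3 subunits lower and 2 higher in clone 2, none of them beyond 0.13 log2, and Rfc3, Rfc4 and Rfc5 changed sign in some alternatives. Rpa1, the large subunit of the protein that coats single-stranded DNA, read 4.14 and 4.16, Rpa2 0.61 and 0.55, and Rpa3 3.49 and 3.40. Fen1, the nuclease that removes flaps on the lagging strand, read 3.64 and 3.80, and Lig1, the ligase that seals the nicks, read 4.54 and 4.52. No gene of this group of 11 lay beyond the spot scatter in this scaling, and Pcna, Rfc2 and Lig1 did in some alternatives.

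The enzymes that make DNA precursors differed little in this scaling. Rrm1 and Rrm2, the subunits of ribonucleotide reductase, read 3.23 in clone 1 and 3.26 in clone 2, and 5.24 and 5.29. Tyms, which makes thymidylate, read -2.29 and -2.36. The 3 differences were 0.07 log2 at most, and each changed sign in some alternatives, with Tyms at 0.23 with normexp correction.

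Of the members, 7 were read by 2 probes, and the sequences of 4 of them show where the probes stand. The first 30 bases of each 60-base probe are given as on the array, with the brightest probe first. Orc4 and Rfc4 are shown because their probes opposed each other, Orc3 because its second probe is dim, and Mcm3 because its probes overlap. Shared bases of Mcm3 are in capitals.
Orc4, brightest: attgagctactcaaaagaactgctatctat
Orc4, second: agcctgaccataagttggaaagctctcatt
Rfc4, brightest: ggcttcatctctccccttttgtatgaaacc
Rfc4, second: tgggccacctggaactggcaaaacatccac
Orc3, brightest: gttccatgtccaacttgcatatttgtatca
Orc3, second: atgttcaactctcaagagaattgtaccaaa
Mcm3, brightest: caaggttggattggagaAAGCTTTCTTTGC
Mcm3, second: AAGCTTTCTTTGCgattagactagtatgta
The Mcm3 probes overlap by 43 bases, 42 of them identical, and gave differences of 0.14 and 0.23. The Rfc4 probes, 6958 bases apart on chromosome 16, gave 0.08 and -0.08, opposite in sign but both inside the spot scatter. The second Orc3 probe, 471 bases downstream of the brightest on chromosome 4, read -3.96 and -3.70, a difference of 0.26 that is inside the dim-probe limit. The Cdc6 probes gave -0.10 and -0.38, and the Rpa1 probes 0.02 and 0.26. In Mcm3, Cdc6 and Rpa1 the second probe alone lay beyond 0.21. Over the 6 members with both probes detected, the differences of the probes were 0.24 log2 apart in the median, close to 0.23 over all such genes. Positions are on mm9 per the file headers, and no gene annotation of that build was used, so exons are not given. The probes of Orc1, Orc2, Rfc3, Pold1 and Rpa3 are placed over 369 to 1799 bases, which is longer than a probe.

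**Figure D4:**
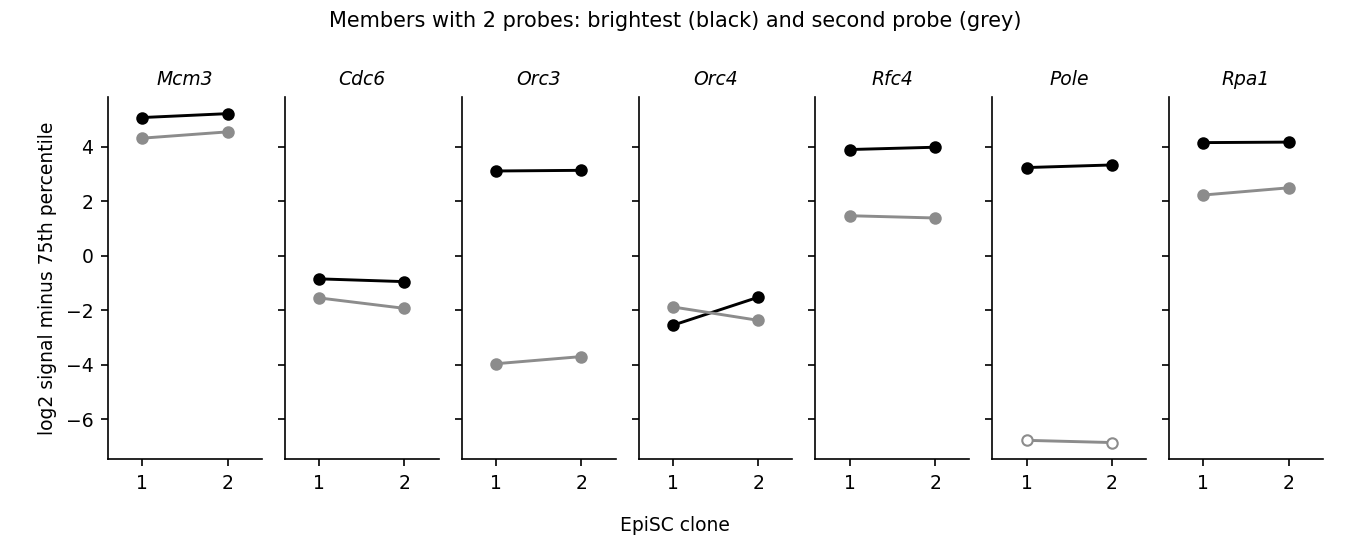
Log2 level (y axis) in clone 1 and clone 2 (x axis) of the 7 members read by 2 probes, with the brightest probe in black and the second in grey, and open points for the Pole probe that was not well above background. The lines run nearly level except for Orc4, where they cross.

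Genes around the replication machinery were described by lists of related factors that are not members. Of 31 other replication factors, 30 were detected on both arrays, and none of these was 1.5-fold apart (background 9.09%). Their median difference was -0.02. The largest belonged to Rnaseh2b, a subunit of the nuclease that removes RNA from DNA (0.87 in clone 1 and 1.33 in clone 2), and Pole4, a small subunit of the leading-strand polymerase (-0.27 and 0.17). Mcmdc2, an MCM-like gene known from meiosis, passed the background flag on the array of clone 1 alone (-3.60), at least 1.96-fold above the lowest detected signal of clone 2.

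Chromatin assembly and maintenance genes were all detected, 12 of 12, with a median of -0.12. Hells, a chromatin remodeler that supports DNA methylation, read 0.23 in clone 1 and -0.37 in clone 2, 1.52-fold higher in clone 1. By brightest probes it was the 1 gene of 12 past 1.5-fold, against 9.09% of all genes. Asf1b, a histone chaperone, read 1.65 and 1.31.

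Of 14 nucleotide supply genes, 13 were detected on both arrays, with a median of 0.14. Dck, a salvage kinase, read -3.28 in clone 1 and -2.56 in clone 2, 1.64-fold higher in clone 2. Rrm2b, the alternative small subunit of ribonucleotide reductase, did not pass the background flag on either array, while Rrm1 and Rrm2 were detected in both.

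E2F and cell cycle control genes were detected on both arrays in 18 of 20 cases, with a median of 0.08. E2f4, mostly a repressor of E2F target genes, read -2.15 in clone 1 and -1.52 in clone 2, 1.55-fold higher in clone 2. It was the 1 gene of 18 past 1.5-fold in this scaling, against 9.09% of all genes. With the percentile over detected probes E2f4 was not past 1.5-fold (0.56 log2). Fbxo5, an inhibitor of the anaphase-promoting complex, read 2.50 and 2.01, a difference of -0.49 that passed 1.5-fold with normexp correction (-0.62) and in the authors' deposited table (-0.59). Ccne2 and Rbl2 did not pass the background flag on either array. Of 12 mitotic genes 11 were detected on both arrays, none 1.5-fold apart (9.09% of all genes were), with a median of 0.14. Cdk1, the kinase that drives mitosis, read 1.97 and 2.50 by the brightest of its 3 probes, a difference of 0.53 that lay between 0.23 and 0.53 over the alternatives, and the mitotic kinase Aurka read 4.62 and 4.97. The only probe of Aurkb did not pass the background flag on either array. The medians of the nucleotide supply, E2F and mitotic lists turned to -0.01, -0.05 and -0.06 at the lowest over 9 alternatives, so these lists have no direction.

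**Figure D5:**
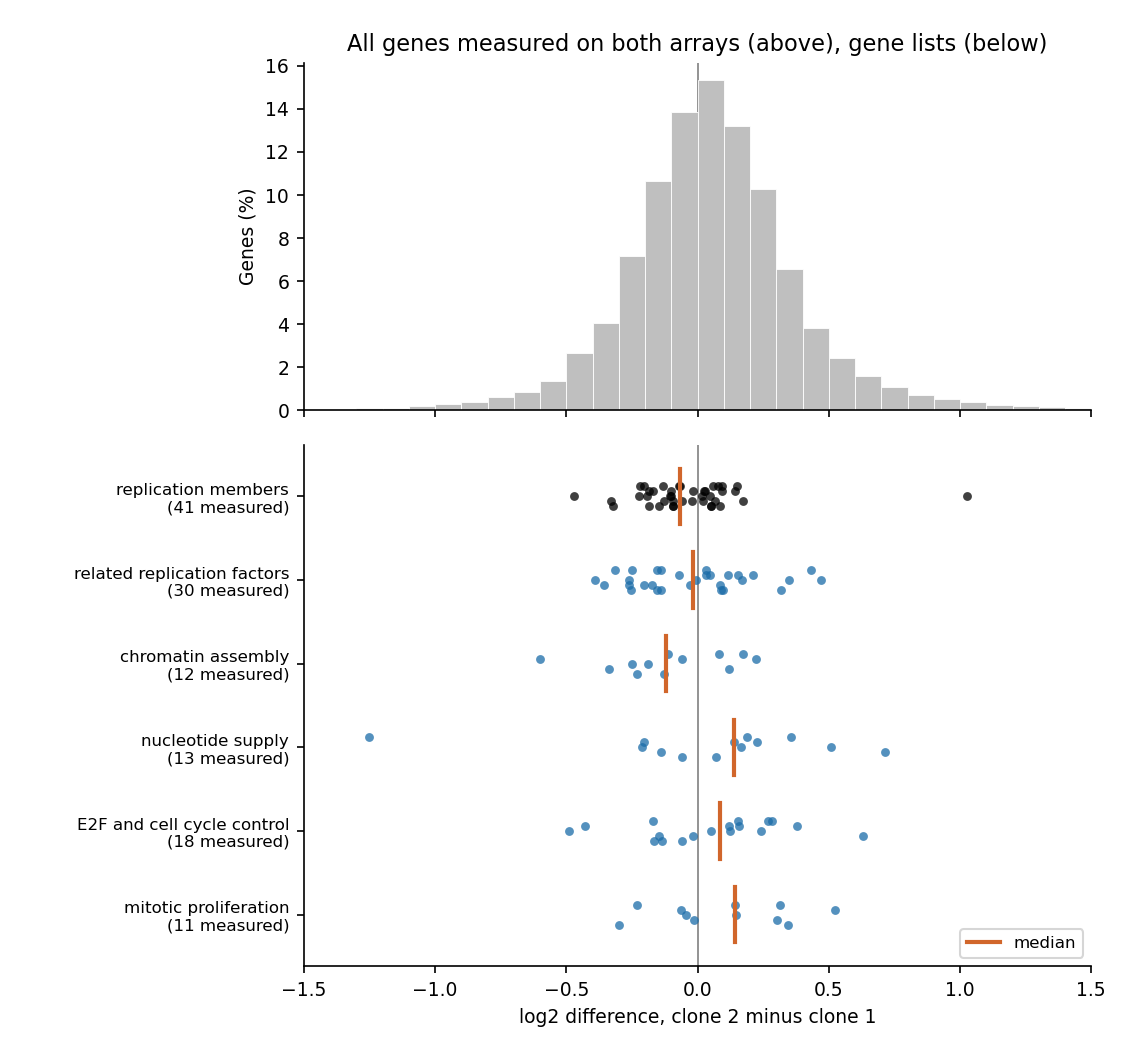
Above, percent of the 13923 genes measured on both arrays in bins of 0.1 of the log2 difference (clone 2 minus clone 1, x axis), without 132 genes beyond 1.5 log2. Below, the differences of the members and of each related list on the same axis (points, 1 per gene) with the median (bars); the medians run from -0.12 for chromatin assembly to 0.14 for mitotic and nucleotide supply genes.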

How the data were processed

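One array per EpiSC clone was analysed. The authors scanned each array and deposited the scanner output, whose processed signal intensity per spot is background-subtracted and detrended by Agilent Feature Extraction 11.0.1.1 (protocol GE1_1100_Jul11, design 026655, build mm9), per the file headers. A further table, deposited by the authors, holds an intensity per probe whose making is not given in the sources used. It served as an alternative.

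Outlier spots (277 and 246 of 43020) were left out. Log2 intensities were averaged per probe, and each array was scaled to its 75th percentile over 39429 probes. Detection required the software's background flag on 50% or more of a probe's spots. Names came from RefSeq (GRCm38.p6, names only) by accession (26160), symbol (3126) or older symbol (910), and 9233 probes had none. Genes were counted at 1.5-fold and 2-fold. All members were named, and of the related lists the genes at least 1.5-fold apart, the 2 with the largest difference and those not detected on both arrays. The steps were tested on simulated data with known shifts. R 4.3.3 with limma 3.58.1 and Python 3.11.15 were used. One result that the naming rule covers is not reported here. The members and lists were chosen with earlier results of these data known.

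Alternatives were quantile normalization, another percentile base, normexp (offset 50), the deposited table, the mean of probes, each probe alone, another detection flag, outliers kept, RefSeq names and, chosen after seeing the data, cyclic loess.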

Additional observations from a re-analysis of the deposited data

How the results depend on the processing

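All 34 members found by name were detected on both arrays in the alternatives that give a value per gene, and 38 of 39 when each probe was taken on its own. None of them was 1.5-fold apart in any alternative. With RefSeq names, which add 7 genes, 1 gene (Orc4) was past both 1.5-fold and 2-fold, with a difference of 1.03. With normexp correction the value of Orc4 was -0.10, which may be that of its second probe, since the brightest probe is picked anew. The direction of small differences depended on the scaling. Of the 34, 15 were higher in clone 2, but 7 with the percentile over detected probes, 4 with normexp correction, 3 in the authors' deposited table, and 2 after quantile and 2 after cyclic loess normalization. Their median difference lay between -0.14 and -0.04. Of all 41 members, 22 kept their sign in all 9 alternatives that give a value per gene, and 19 did not. Among these 9, RefSeq names and the other detection flag left the value of every member as it was. Keeping outliers shifted all members by the same small amount, so these settings could hardly change a sign. No paired analysis was possible because each clone has 1 array, and leaving out an array leaves no comparison. The number of arrays limits the precision, and dim probes such as those of Orc4, Pola2 and Tyms scatter more.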

Other observations

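In the main scaling, the difference between clones rose with the level of the probe, though only weakly across all genes. These values are for that scaling alone, and the level of a probe also reflects how strongly it binds. Across the 41 members Pearson's r between level and difference was 0.17 and Spearman's rho 0.55, and across all 13923 genes measured on both arrays they were 0.15 and 0.18. These describe genes that share the same 2 arrays and are not independent replicates.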
